A study of Mus musculus with 16 samples.

Results

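Monocytes were picked out of a CITE-seq survey of mouse spleen, an assay that counts messenger RNA molecules and DNA-tagged antibodies bound to the surface in the same droplet. A droplet counted as a monocyte if its raw antibody counts were 50 or more for CD11b, under 200 for Ly6G, under 60 for CD106 and under 40 for the T-cell receptor (TCR), and if it held 3 or more unique molecules (UMIs) of Lyz2, the gene for lysozyme M. This rule took 145 of 7097 droplets, which is 2.04% (exact 95% interval 1.73 to 2.40%, counting error only). The first library, Main1, gave 67 of 3179 droplets (2.108%) and the second, Main2, gave 78 of 3918 (1.99%). The droplets were thus chosen by 5 measured values, the CD11b, Ly6G, CD106 and TCR counts and the Lyz2 UMIs, which are given below as a description only.

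All droplets came from spleens of female BALB/cJ mice aged 9 months, with no treatment or genetic change given in the labels, and the series' title gives its purpose as assigning single-cell profiles to multiplexed tissue images through shared antigens. Cells were passed through a 40 um strainer and red cells were lysed for 5 min. The labels list 16 samples in 4 groups of 4 (RNA and antibody libraries for Main1 and for Main2), but the tables join the 4 of a group, so that Main1 and Main2 are the 2 units compared here, and the labels do not say whether each came from its own animal. The p-values therefore rest on the spread between 2 libraries, which may be technical and was shared in part or wholly across genes. Within the monocytes, droplets with a Ly6C antibody count of 500 or more (Ly6C-high, 99 droplets) were set against those under 500 (Ly6C-low, 46 droplets), and the monocytes as a whole were set against a neutrophil gate (66 droplets), a red pulp macrophage gate (85), a dendritic cell gate (73) and all 6952 other droplets.

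Monocytes are short-lived blood leukocytes made in bone marrow, and the mouse spleen also holds a reservoir of them in the red pulp. In mice they are divided into Ly6C-high classical monocytes, which carry the chemokine receptor CCR2 and enter inflamed tissue, and Ly6C-low nonclassical monocytes, which patrol vessel walls and depend on the transcription factor NR4A1. Classical monocytes can turn into nonclassical ones in the circulation, and both carry the receptor for colony-stimulating factor 1.

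Promoter sequences are shown for 4 genes, 2 of the classical and 2 of the nonclassical programme, because these genes are followed through the contrasts below; Mgst1 and Ace were called between the Ly6C classes, and Ccr2 and Treml4 were not. Ccr2, the receptor for the chemokine CCL2, lies on chromosome 9 at 124101950-124113557, forward strand; Mgst1, a microsomal glutathione transferase, lies on chromosome 6 at 138140316-138156755, forward strand. Ace, angiotensin-converting enzyme, lies on chromosome 11 at 105967945-105989964, forward strand, and Treml4, a receptor that binds dead cells, on chromosome 17 at 48264295-48275360, forward strand (GENCODE vM21, GRCm38). Each sequence below runs from 250 bases before to 50 bases after an annotated start site in RefSeq (GRCm38.p6, forward strand, 5′ to 3′), and these starts need not be the gene starts just given: the Ccr2 window begins 17 bases and the Mgst1 window 39 bases before the GENCODE gene start, so most of either lies inside the annotated gene. The windows are chr9:124101933-124102232 for Ccr2, chr6:138140277-138140576 for Mgst1, chr11:105967698-105967997 for Ace and chr17:48264045-48264344 for Treml4. Capitals mark matches to GAGGAA, a core of the sites bound by PU.1, the factor encoded by Spi1, or to TTGCNNAA, a pattern of C/EBP factors, on either strand.
Ccr2: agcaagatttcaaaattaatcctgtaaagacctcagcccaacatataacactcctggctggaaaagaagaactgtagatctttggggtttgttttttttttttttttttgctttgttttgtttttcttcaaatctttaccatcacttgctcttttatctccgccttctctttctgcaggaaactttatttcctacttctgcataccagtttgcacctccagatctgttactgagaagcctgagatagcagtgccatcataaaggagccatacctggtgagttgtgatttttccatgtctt
Mgst1: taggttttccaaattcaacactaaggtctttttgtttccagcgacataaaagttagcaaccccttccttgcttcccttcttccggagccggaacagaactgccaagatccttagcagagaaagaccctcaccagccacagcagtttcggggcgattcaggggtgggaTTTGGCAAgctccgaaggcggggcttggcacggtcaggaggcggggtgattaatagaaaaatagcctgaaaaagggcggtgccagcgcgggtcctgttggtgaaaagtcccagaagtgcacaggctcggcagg
Ace: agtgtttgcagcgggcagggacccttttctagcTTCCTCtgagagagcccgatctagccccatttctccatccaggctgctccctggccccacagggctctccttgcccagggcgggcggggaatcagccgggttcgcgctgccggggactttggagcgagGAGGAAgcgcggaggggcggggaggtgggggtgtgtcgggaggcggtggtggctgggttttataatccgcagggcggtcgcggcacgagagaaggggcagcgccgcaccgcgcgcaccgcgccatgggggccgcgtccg
Treml4: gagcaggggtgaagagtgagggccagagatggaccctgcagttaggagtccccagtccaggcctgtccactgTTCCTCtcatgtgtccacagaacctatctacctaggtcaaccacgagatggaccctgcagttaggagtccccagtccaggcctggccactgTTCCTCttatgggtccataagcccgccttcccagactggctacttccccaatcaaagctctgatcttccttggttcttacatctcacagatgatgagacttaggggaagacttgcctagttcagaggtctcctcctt

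The Ace window held 2 matches to GAGGAA and the Treml4 window 2, the Mgst1 window held 1 match to TTGCNNAA, and the Ccr2 window held neither. Another pattern, AAAGGTCA, of the NR4A family, was in none of the 4 windows. GAGGAA was found in 28.3% of all 32851 mouse promoters of that length, TTGCNNAA in 10.8% and AAAGGTCA in 1.51%. Of 13 promoters of 9 classical monocyte genes, 6 (46.2%) held GAGGAA and 3 (23.1%) TTGCNNAA. Of 17 promoters of 16 nonclassical genes, 7 (41.2%) held GAGGAA and 2 (11.8%) TTGCNNAA. A match is a run of letters and was not tested as a binding site, and Ace and Mgst1 each have a second annotated promoter that is not printed.

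The monocyte droplets were deeper than the rest of the tissue. They held a median of 3019 UMIs (range 1183 to 14252; 473570 UMIs in all), against 1767 UMIs in the other droplets. Ly6C-high droplets held a median of 3136 UMIs and Ly6C-low ones 2117. All levels below are therefore given as CPM, the UMIs of a gene scaled to counts per 1000000 UMIs of the same population and library, Main1 before Main2; they are not corrected for gene length and are not compared between genes. Of 14 barcodes that occur in both libraries, 0 belonged to monocytes; no step was taken against droplets that caught several cells.

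The gate was checked against its neighbours first. The antibody criteria alone were met by 369 droplets, and 224 of these had under 3 Lyz2 UMIs, 190 of them at 0. Of the 224, 67 lay in the dendritic cell gate, 87 had 5 or more counts of the natural killer antibody NKp46, 42 had a B220 count of 200 or more, and 5 had a Ly6C count of 500 or more. The monocyte droplets nearest the limits had a CD11b count of 58, a Ly6G count of 79, a CD106 count of 53 and a TCR count of 31. The nearest droplets left out had a CD11b count of 36, a Ly6G count of 210, a CD106 count of 69 and a TCR count of 42, with all other criteria met. Around the Ly6C limit the closest counts were 572 on the high side and 493 on the low side.

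Lyz2, on chromosome 10 at 117277331-117282321, reverse strand, took 28800 and 29551 CPM in monocytes, against 453 and 499 in the other droplets. Since the rule used it, this is a description. The other genes given as markers of these cells matched the label. Ccr2 stood at 1118 and 1297 CPM in monocytes, against 38.7 and 36.8 in the other droplets. Fn1, fibronectin, stood at 438 and 355 in monocytes, against 3.74 and 11.1 in the other droplets. Ly6c2, a gene of the Ly6C antigen, stood at 1340.01 and 2362 in monocytes, against 207 and 237 in the other droplets, and its UMIs can be shared with the near-identical copy Ly6c1. Ace stood at 202 and 122 in monocytes, against 1.80 and 1.31 in the other droplets, and Treml4 at 148 and 40.7, against 5.93 and 5.05 in the other droplets. Every one of these markers was higher in the monocytes of both libraries than in the other droplets of either; they are given without a test, since they were named with earlier results known.

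Surface antibodies that the rule did not use were compared as well. In monocytes the median CD44 count, an adhesion receptor, was 367, against 46 in the other droplets, and the median count of CD16/32, the low-affinity Fc receptors, was 139, against 78 in the other droplets. F4/80, a macrophage adhesion receptor, had a median of 58 in monocytes, against 11 in the other droplets, and of 511 in red pulp macrophages, whose gate required 200 or more. CD45, carried by all leukocytes, had a median of 302 in monocytes, against 433 in the other droplets. The antibody to CD90 (Thy1), usually read as a T-cell antigen, had medians of 362 in Ly6C-high and 101.5 in Ly6C-low monocytes, against 56 in the other droplets. Its order was the same in each library, with 303 and 402 in Ly6C-high, 101.5 and 110.5 in Ly6C-low, and 59 and 53 in the other droplets of Main1 and Main2. The 9 measured T-cell marker genes summed to 63.9 and 124 CPM in Ly6C-high and 96.6 and 117 in Ly6C-low monocytes, against 1623 and 1569.7 in the other droplets. They include Trac, Trbc1 and Trbc2, genes of the TCR antibody that the rule used. The droplets removed by the TCR limit are among the other droplets, so this sum is a description only.

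Antibody counts were then compared between the Ly6C classes. By the choice of the classes, Ly6C-high droplets ran from 572 to 8611 Ly6C counts (median 2495), and Ly6C-low ones from 1 to 493 (median 18.5), with a median of 13 in the other droplets. CD11b had close medians, of 628 in Ly6C-high and 608 in Ly6C-low monocytes. MHC class II, which presents antigen to helper T cells, had medians of 31 in Ly6C-high and 169.5 in Ly6C-low monocytes. The count was 500 or more in 4 of 99 Ly6C-high and in 15 of 46 Ly6C-low droplets. CD11c, an integrin of dendritic cells and nonclassical monocytes, had medians of 4 in Ly6C-high and 41 in Ly6C-low monocytes, with 50 or more counts in 1 of 99 Ly6C-high and in 21 of 46 Ly6C-low droplets. F4/80 ran the other way, with medians of 65 in Ly6C-high and 31 in Ly6C-low monocytes. These directions held in each library. With 2 libraries no exact test over samples can reach 0.05, so antibody values carry no test.

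**Figure D1:**
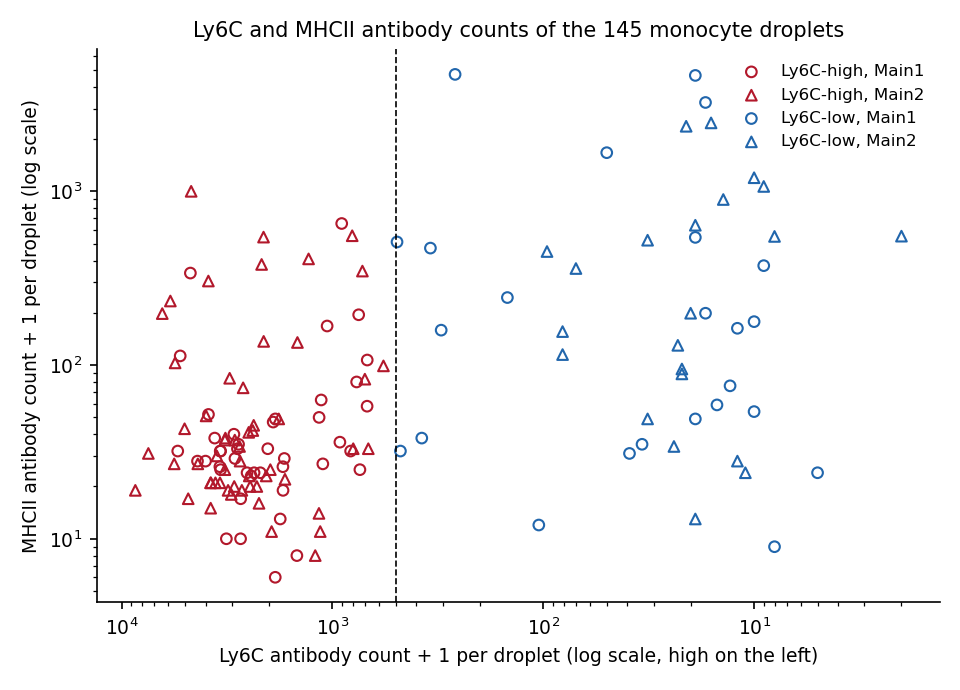
Ly6C antibody count (horizontal, log scale, high on the left) and MHC class II antibody count (vertical, log scale), each plus 1, in each of the 145 monocyte droplets; red marks Ly6C-high and blue Ly6C-low, circles Main1 and triangles Main2, and the dashed line is the limit of 500. Most Ly6C-high droplets lie below 100 on the vertical axis, while Ly6C-low droplets spread from 8 to 4723 MHC class II counts.

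**Figure D2:**
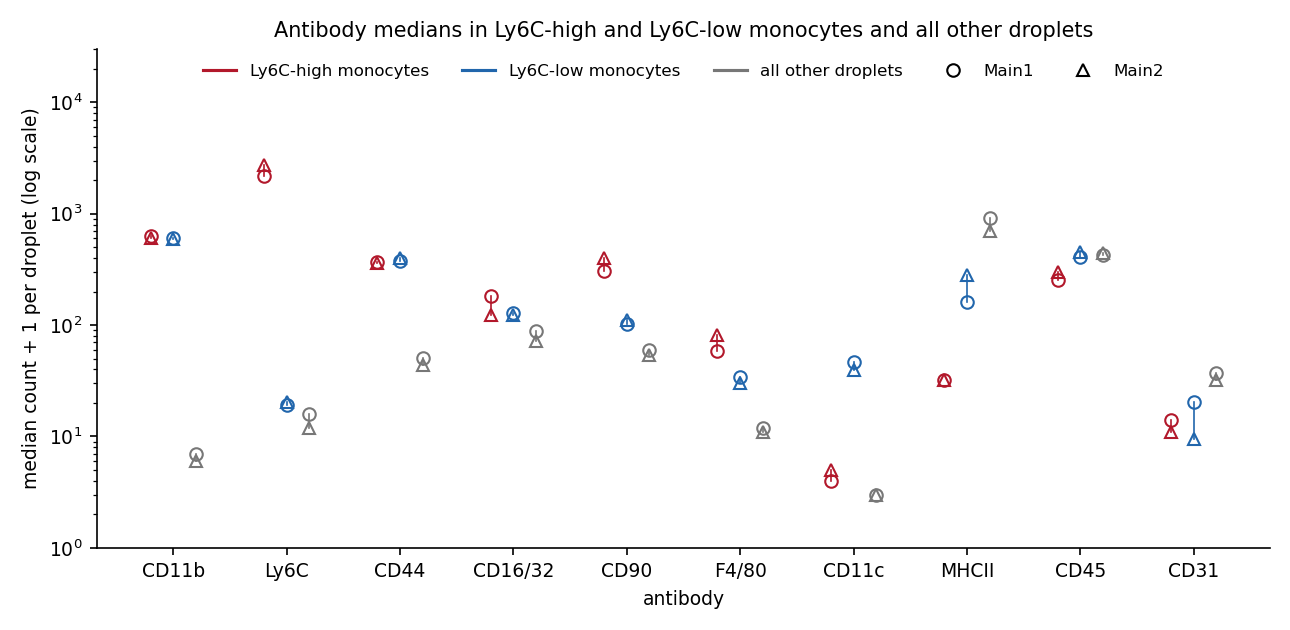
Median antibody count plus 1 per droplet (log scale) for 10 antibodies in Ly6C-high monocytes (red), Ly6C-low monocytes (blue) and all other droplets (grey); circles are Main1, triangles Main2, and a line joins the 2 libraries. CD90 and F4/80 are higher in Ly6C-high, CD11c and MHC class II in Ly6C-low monocytes, and the CD11b medians lie close together.

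Next, messenger RNA beyond the marker genes was compared between monocytes and all other droplets. UMIs were summed per library and population and tested with edgeR's quasi-likelihood test, with the library as a block and Benjamini-Hochberg adjustment over all genes with 20 or more UMIs; a gene was called at an adjusted p under 0.05. Of 11376 genes, 2380 (20.9%) were called, 1214 higher (10.7%) and 1166 lower (10.2%) in monocytes, and the median log2 fold change over all tested genes was -0.31. Cx3cr1, the fractalkine receptor, was 232 and 188 CPM in monocytes, against 4.12 and 2.83 in the other droplets (log2 fold change 5.88 ± 0.31 SE, adjusted p = 6.73e-79). Csf1r, the receptor for colony-stimulating factor 1, was 320.2 and 248 in monocytes, against 13.1 and 11.2 in the other droplets (4.49 ± 0.21 SE, adjusted p = 5.34e-94). The library values did not overlap for either gene. In this fit the prior degrees of freedom, the weight that edgeR gives to the spread shared by all genes, were infinite. Its p-values thus rest on that shared spread and not on each gene's own.

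Of 15 lineage transcription factors tested, 9 were called higher and 1, Maf, lower in monocytes (median log2 fold change 1.43). Spi1, which encodes the myeloid master factor PU.1, was 704 and 665 CPM in monocytes, against 103 and 101 in the other droplets (log2 fold change 2.70 ± 0.17). Klf4, which monocytes need to develop, was 138 and 85.0 in monocytes, against 5.41 and 6.46 in the other droplets (4.13 ± 0.36). Cebpa and Cebpb, C/EBP factors of myeloid differentiation, had log2 fold changes of 4.57 ± 0.76 and 4.11 ± 0.65. All of these genes passed the test.

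Receptors followed. All 5 Fc receptor genes were higher (median 4.22), among them Fcer1g, the signalling chain they share, at 3271 and 2934 CPM in monocytes, against 156 and 165 in the other droplets, and Fcgr3, the low-affinity receptor CD16, at 483 and 477, against 18.7 and 20.6 in the other droplets. Among pattern recognition and scavenger receptors, 13 of 17 tested genes were higher and 0 lower (median 2.37). Clec4a3, a C-type lectin, was 542 and 377 in monocytes, against 6.83 and 6.87 in the other droplets (5.99 ± 0.19), and Cd14, the lipopolysaccharide co-receptor, had a log2 fold change of 3.79 ± 0.47. Of 8 growth factor receptors 7 were higher. In the chemokine list 5 of 11 were higher and 2 lower. Ccl6, a macrophage chemokine, was 1907 and 1375 in monocytes, against 44.6 and 50.1 in the other droplets, and Ccl9, a related one, was 729 and 832, against 24.2 and 13.7 in the other droplets.

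Further lists were counted in the same way. Of 14 lysosomal genes other than Lyz2, 13 were called higher (median 2.22), such as Psap, the saposin precursor, at a log2 fold change of 3.20 ± 0.17, Ctsb, cathepsin B, at 2.25 ± 0.17, and Ctss, cathepsin S, at 1.95 ± 0.17. In the list of S100, galectin and annexin genes 8 of 11 were higher and 2 lower, with S100a4 at 980.4 and 728 in monocytes, against 42.8 and 39.9 in the other droplets. Complement C3 was 88.7 and 88.7 in monocytes, against 2.83 and 2.42 in the other droplets (5.03 ± 0.46). Of 17 interferon-response genes, 11 were higher (median 1.73), including Irf7, a regulator of type I interferon, at 2.39 ± 0.23. Il1b, the cytokine interleukin 1 beta, had a log2 fold change of 2.54 ± 0.33. Each of these named genes passed the test.

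MHC class II genes ran the other way, with 6 of 8 lower and 1, H2-DMb1, higher (median -0.99). Cd74, the invariant chain, was 7873 and 9029 CPM in monocytes, against 17215 and 18032 in the other droplets, in a tissue where 5138 of 7097 droplets lay in a B-cell gate. All 10 B-cell markers, all 6 tested T-cell markers and all 6 erythroid markers were lower in monocytes, and the 4 basophil markers measured were at 0 UMIs. The rule had left all droplets of 40 or more TCR counts among the other droplets. Bcl2, the survival gene, fell by 2.40 on the log2 scale (SE 0.22). Of 12 cell-cycle genes 1 was higher, Hmgb2 (0.59 ± 0.17, adjusted p = 0.00481), and 2 were lower. A single droplet held 27.2% of the Hmgb2 UMIs of Ly6C-high monocytes, and another held 40.0% of those of Ly6C-low ones. The part of these droplets in the Hmgb2 call was not tested.

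By size, the called genes that were highest over the other droplets, besides Ace, were Plcb1 (a phospholipase C, log2 fold change 7.54 ± 1.04), Zfyve9 (an endosomal adaptor of TGF-beta signalling, 6.97 ± 1.12), Nupr1 (a stress-response chromatin protein, 6.60 ± 0.29), Tppp3 (a tubulin-binding protein, 6.55 ± 0.31), F13a1 (coagulation factor XIII, 6.55 ± 0.26), Msr1 (a scavenger receptor, 6.47 ± 0.63), Ifi202b (an interferon-inducible gene, 6.43 ± 0.43), AI839979 (6.43 ± 0.60) and Cd300lg (6.36 ± 1.29). The 10 lowest were all at 0 UMIs in monocytes. Against a floor of 3 UMIs over the monocytes, Gm30211 was at least 29.2-fold lower, Car1, an erythroid carbonic anhydrase, at least 12.4-fold and Dapl1 at least 8.36-fold. The rest were Mast4, Gpr171, Bend5, Ell3, Ccr6 (a chemokine receptor of B cells), Prkcq (a T-cell kinase) and Ccl4, from at least 8.28-fold down to at least 5.26-fold lower. With DESeq2 1209 genes were called, 833 higher and 376 lower. Without the Lyz2 requirement the gate held 369 droplets, in which Ccl4 was higher than in the rest (log2 fold change 4.27). The 145 monocytes held 0 Ccl4 UMIs, so the Ccl4 of the wider gate came from the 224 added droplets.

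The question within the monocytes was whether the classical and nonclassical programmes followed the Ly6C antibody. Of 2941 genes tested, 65 (2.21%) were called, 26 higher (0.884%) and 39 lower (1.33%) in Ly6C-high droplets. Of 10 classical genes tested, 9 had a positive fold change and 2, Mgst1 and Hp, were called higher, while Lyz1 was called lower; the median log2 fold change was 1.10, against -0.01 over all genes tested. All 15 nonclassical genes tested had a negative fold change, and 5, Ace, Eno3, Ear2, Pglyrp1 and Fabp4, were called lower (median -1.44). Of 7 MHC class II genes 6 were called lower (median -2.83). Ly6c1, Ly6c2 and Lyz2 are left out of the test because their product or UMIs had set the groups. Lists and members were chosen with earlier results known, so these directions are no independent evidence.

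Ly6c2 followed its antibody, at 1881 and 3150.4 CPM in Ly6C-high and 113 and 29.2 in Ly6C-low monocytes, and Ly6c1 stood at 703 and 999 in Ly6C-high and 48.3 and 14.6 in Ly6C-low ones. The 2 genes lie on chromosome 15, reverse strand, at 75044018-75048830 (Ly6c1) and 75108158-75111970 (Ly6c2), and their transcripts were 97.6% identical over 822 aligned bases, so how UMIs were split between them is uncertain. Lyz2 was also higher in Ly6C-high monocytes, at 37613 and 37275, against 8808 and 6712 in Ly6C-low ones. Per droplet it ran from 11 to 330 UMIs (median 121) in Ly6C-high and from 3 to 88 (median 15.5) in Ly6C-low monocytes.

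Mgst1 was 646 and 717 CPM in Ly6C-high and 113 and 117 in Ly6C-low monocytes (log2 fold change 2.49 ± 0.30 SE, adjusted p = 0.000475). Hp, haptoglobin, which binds free haemoglobin (chromosome 8, 109575128-109579172, reverse strand), was 929.9 and 727 in Ly6C-high and 80.5 and 219 in Ly6C-low monocytes (2.35 ± 0.35, adjusted p = 0.00223). In both genes the libraries of the 2 classes did not overlap. A single droplet held 55.0% of the Hp UMIs of Ly6C-low monocytes, the class of lower Hp. The defining receptor Ccr2 was 1228 and 1553 in Ly6C-high and 869.5 and 541 in Ly6C-low monocytes, higher in both libraries but short of the threshold (0.93 ± 0.25, adjusted p = 0.0929). F13a1 was 369 and 346 in Ly6C-high and 177 and 14.6 in Ly6C-low monocytes (1.91 ± 0.47, adjusted p = 0.0597). Plac8, a gene of myeloid effector cells, was 5572 and 4362 in Ly6C-high and 3253 and 1813 in Ly6C-low monocytes (0.95 ± 0.28, adjusted p = 0.127). Ifitm6, an interferon-induced membrane protein, was 618 and 811 in Ly6C-high and 403 and 395 in Ly6C-low monocytes (0.78 ± 0.24, adjusted p = 0.147).

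Fn1, on chromosome 1 at 71585520-71653200, reverse strand, was 476 and 475 CPM in Ly6C-high and 354 and 0 in Ly6C-low monocytes (1.47 ± 0.54, adjusted p = 0.259). A single Ly6C-low droplet of Main1 held 17 of the 22 Ly6C-low UMIs (77.3%).

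On the nonclassical side, Ace was 114 and 94.0 in Ly6C-high and 403 and 205 in Ly6C-low monocytes (-1.56 ± 0.32, adjusted p = 0.021). Eno3, the muscle form of enolase (chromosome 11, 70657202-70662513, forward strand), was 35.5 and 39.6 in Ly6C-high and 354 and 234 in Ly6C-low monocytes (-2.95 ± 0.40, adjusted p = 0.00105). Ear2, a ribonuclease, was 63.9 and 89.0 in Ly6C-high and 274 and 278 in Ly6C-low monocytes (-1.88 ± 0.34, adjusted p = 0.00901). Pglyrp1, a peptidoglycan-binding protein, was 71.0 and 158 in Ly6C-high and 483 and 556 in Ly6C-low monocytes (-2.21 ± 0.29, adjusted p = 0.00105). For these 4 genes every Ly6C-low library lay above both Ly6C-high libraries. A single droplet held 29.4% of the Pglyrp1 UMIs of Ly6C-low monocytes. Fabp4, a fatty-acid binding protein, had 3 UMIs in Ly6C-high and 22 in Ly6C-low monocytes, a ratio of 19.3 in favour of Ly6C-low (counting interval 5.79 to 101, adjusted p = 0.00603).

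The other nonclassical genes missed the threshold. Treml4 was 85.2 and 29.7 in Ly6C-high and 289.8 and 73.1 in Ly6C-low monocytes (-1.65 ± 0.45, adjusted p = 0.0977), and the classes overlapped across libraries. Cx3cr1 (chromosome 9, 119901616-120069879, reverse strand), the receptor most often used to name nonclassical monocytes, was 213 and 188 in Ly6C-high and 274 and 190.1 in Ly6C-low monocytes (-0.26 ± 0.30, adjusted p = 0.817). Fcgr4, an activating Fc receptor, had a log2 fold change of -1.85 ± 0.56 (adjusted p = 0.15), Adgre4, an adhesion receptor, of -1.10 ± 0.36 (adjusted p = 0.187) and Gngt2, a G-protein subunit, of -0.68 ± 0.22 (adjusted p = 0.193). Nr4a1 was 185 and 124 in Ly6C-high and 225 and 132 in Ly6C-low monocytes, and Pou2f2, a B-cell and monocyte factor, 298 and 247 in Ly6C-high and 499 and 497 in Ly6C-low monocytes (-0.94 ± 0.24, adjusted p = 0.0695).

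**Figure D3:**
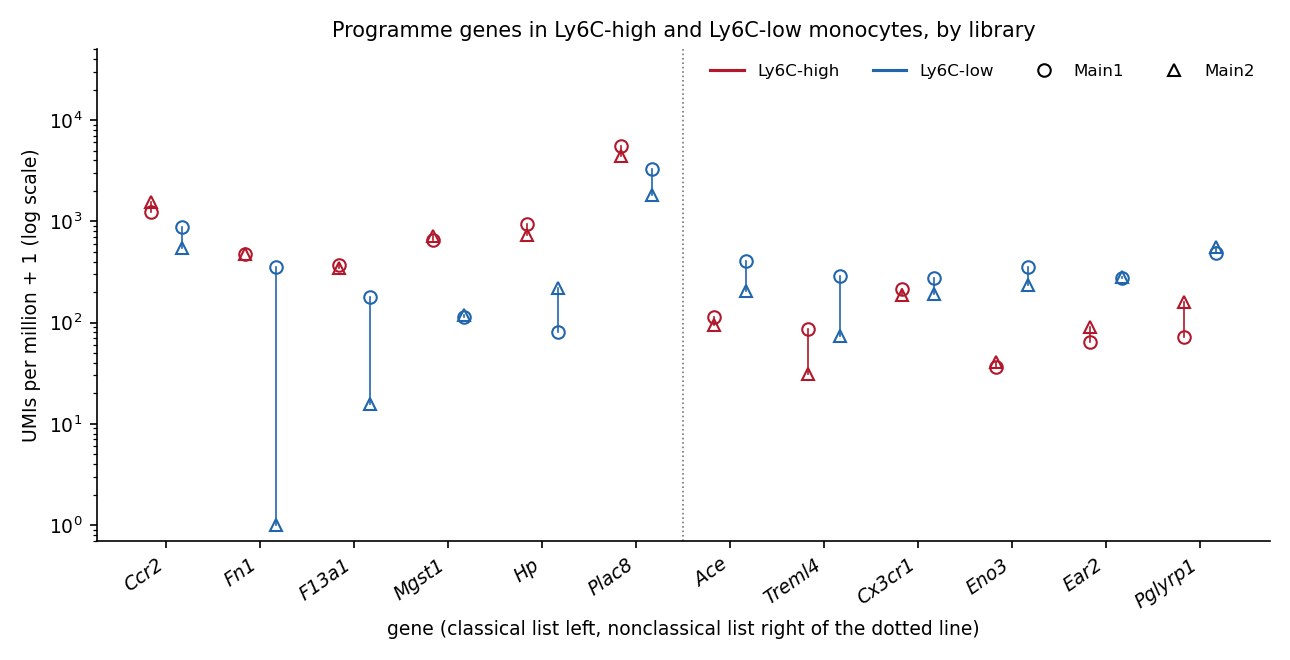
CPM plus 1 (log scale) of 6 classical and 6 nonclassical genes in Ly6C-high (red) and Ly6C-low (blue) monocytes; circles are Main1, triangles Main2, and a line joins the 2 libraries of a class. Mgst1 and Hp are separate on the left and Ace, Eno3, Ear2 and Pglyrp1 on the right, whereas Fn1 in Ly6C-low monocytes ranges from 354 to 0 and Cx3cr1 overlaps nearly wholly.

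Genes of antigen presentation were lower in Ly6C-high monocytes. H2-Aa, a chain of the class II molecule, was 845 and 1009 CPM in Ly6C-high and 6489 and 9987 in Ly6C-low monocytes (-3.19 ± 0.31, adjusted p = 7.64e-05). H2-Eb1 was 312 and 396 in Ly6C-high and 2576 and 3977 in Ly6C-low monocytes (-3.26 ± 0.25, adjusted p = 2.19e-05), and H2-DMb1, part of the peptide-loading complex, was 85.2 and 69.2 in Ly6C-high and 692 and 760.4 in Ly6C-low monocytes (-3.31 ± 0.28, adjusted p = 2.57e-05). Cd74 was 3464 and 3081 in Ly6C-high and 17874 and 26613 in Ly6C-low monocytes (-2.80 ± 0.37, adjusted p = 0.00105). Cd209a, a lectin of monocyte-derived and type 2 dendritic cells, was 0 and 29.7 in Ly6C-high and 338 and 687 in Ly6C-low monocytes (-4.98 ± 0.44, adjusted p = 3.34e-05). Cst3, the protease inhibitor cystatin C, abundant in dendritic cells, was 3492 and 3368 in Ly6C-high and 9017 and 7238 in Ly6C-low monocytes (-1.30 ± 0.29, adjusted p = 0.0385). No value of either class overlapped in these 6 genes.

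The summed markers of conventional dendritic cells were higher in Ly6C-low than in Ly6C-high monocytes. The 10 measured markers summed to 192 and 188 CPM in Ly6C-high and 709 and 1111 in Ly6C-low monocytes. Pooled over libraries the Ly6C-low sum was 920 CPM, against 189 in Ly6C-high monocytes, 1297 in the dendritic cell gate and 185 in all other droplets. The name Ly6C-low monocytes thus stands for a class of the gate, whose droplets were not sorted further into monocytes and dendritic cells. Cd209a alone was 517 CPM in droplets under 100 Ly6C counts (found in 10 of 38) and 541 in those of 100 to under 500 (1 of 8). Only 2 of the 10 had enough UMIs for the test, Cd209a, which was called, and Batf3, which was not (-0.23 ± 0.41, adjusted p = 0.873). Zbtb46, Clec9a, Xcr1 and Itgae were at 0 in Ly6C-high monocytes, and only Itgae of the 10 was at 0 in Ly6C-low ones. The part these droplets play in the class II result was not tested, but the contrast without droplets of 500 or more MHC class II counts is given below.

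In several lists single genes were called higher in Ly6C-high monocytes: 2 of 11 S100, galectin and annexin genes (with 1, S100a9, lower), 1 of 14 lysosomal genes (with 2 lower), 1 of 5 Fc receptors and 1 of 8 immediate early genes. Lgals3, galectin 3, was 2342 and 2374 in Ly6C-high and 757 and 848 in Ly6C-low monocytes (1.49 ± 0.24, adjusted p = 0.00412). S100a4 was 1157 and 880.3 in Ly6C-high and 579.7 and 278 in Ly6C-low monocytes (1.22 ± 0.24, adjusted p = 0.0177), and Ctsc, cathepsin C, which activates granule proteases, was 774 and 727 in Ly6C-high and 338 and 219 in Ly6C-low monocytes (1.38 ± 0.25, adjusted p = 0.00958). Fcgr3 was 561 and 589 in Ly6C-high and 306 and 146 in Ly6C-low monocytes (1.31 ± 0.29, adjusted p = 0.0347). Ifi27l2a, an interferon-inducible gene, was 2598 and 2537 in Ly6C-high and 1288 and 1097 in Ly6C-low monocytes (1.05 ± 0.24, adjusted p = 0.0385); it was the only one of 10 interferon-response genes tested that was called. Fos, an immediate early factor, was called higher as well (1.09 ± 0.23, adjusted p = 0.0283).

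Counts of the remaining lists were small. In the BCL2 family 3 of 7 genes were called lower in Ly6C-high monocytes, the anti-apoptotic copies Bcl2a1a (-2.31 ± 0.46), Bcl2a1b (-2.97 ± 0.55) and Bcl2a1d (-2.55 ± 0.34), which are near-identical and share UMIs in an unknown way. The lysosomal list had 1 of 14 higher (Ctsc) and 2 lower (Cst3 and Lyz1). Of 12 myeloid transcription factors, 6 chemokine genes, 10 pattern recognition receptors, 6 growth factor receptors, 10 integrin and adhesion genes, 4 iron genes, 5 cell-cycle genes and 7 glycolysis genes, 0 were called. Spi1, for example, was 696 and 692 in Ly6C-high and 725 and 585 in Ly6C-low monocytes, Csf1r was 319 and 257 in Ly6C-high and 322 and 219 in Ly6C-low ones, and Fcer1g 3265 and 2972 in Ly6C-high and 3285 and 2822 in Ly6C-low ones.

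By size, the other genes called higher in Ly6C-high monocytes were led by Slfn1, a Schlafen gene, with 49 UMIs in Ly6C-high and 0 in Ly6C-low monocytes (at least 6.21-fold higher against 3 UMIs over the class, adjusted p = 0.00958), and Gas7, with 32 UMIs in Ly6C-high and 0 in Ly6C-low ones (at least 4.06-fold higher, adjusted p = 0.0388). Hopx, a homeodomain-only protein, had 83 UMIs in Ly6C-high and 2 in Ly6C-low monocytes, a ratio of 15.8 (counting interval 4.23 to 133, adjusted p = 0.00217), and Ethe1, a mitochondrial sulfur dioxygenase, a ratio of 10.5 (2.76 to 88.5, adjusted p = 0.0161). Slpi, a leukocyte protease inhibitor (2.97 ± 0.51), Capg, an actin-capping protein (2.54 ± 0.38), Idh1, isocitrate dehydrogenase (2.21 ± 0.50), and Cib1, a calcium- and integrin-binding protein (1.99 ± 0.46), came next. On the lower side, beyond genes already given, were Fgd2, a guanine-nucleotide exchange factor (-3.21 ± 0.58), and Sept6, a septin (-2.98 ± 0.54).

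**Figure D4:**
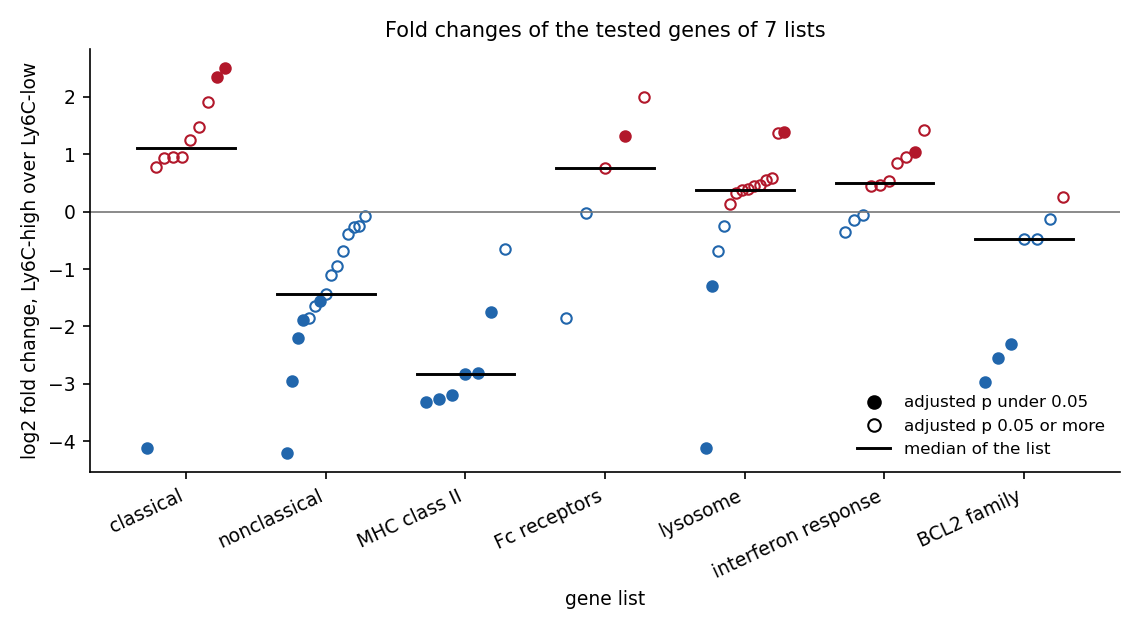
Log2 fold change, Ly6C-high over Ly6C-low, of each tested gene of 7 lists; filled points are called (adjusted p under 0.05), open points are not, and bars are list medians. Classical genes lie above 0 except Lyz1 (-4.12), all 15 nonclassical and all 7 MHC class II genes lie below 0, and the other lists spread around it.

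Single droplets stood apart and carried some calls. A Ly6C-low droplet of Main2 held 1383 S100a8, 395 Ngp and 298 Camp UMIs among 6880, genes of neutrophil granules, and made up 98.8% of the neutrophil marker UMIs of Ly6C-low monocytes, which summed to 225 and 40651 CPM, against 539 and 544 in Ly6C-high ones. A Ly6C-low droplet of Main1 held 88 Lyz1 and 20 C1qa UMIs among 4393, with an MHC class II count of 4659, and made up 87.5% of the red pulp macrophage marker UMIs of its class. A Ly6C-high droplet of Main2 held 97.6% of its class's Jchain, a plasma-cell gene, and the B-cell markers of Ly6C-high monocytes summed to 2037 and 28971 CPM, with 86.5% in 1 droplet. The calls of Ngp, Camp and S100a9 as lower, of Lyz1 and C1qb as lower and of Jchain as higher in Ly6C-high monocytes rest on these 3 droplets. The neutrophil markers Ltf (-5.11 ± 0.68) and Lcn2 (-6.60 ± 0.88) were called lower too, each at an adjusted p of 0.00105. For Ltf 96.2% and for Lcn2 100% of the Ly6C-low UMIs lay in 1 droplet.

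Without the 3 droplets 61 of 2855 genes (2.14%) were called, 27 higher (0.946%) and 34 lower (1.19%), 50 of the 61 shared with the 65. The 3 droplets were picked for their outlying counts after the data were seen. Fn1 was then called (log2 fold change 3.42, adjusted p = 0.00613), as were Chil3, a chitinase-like protein (4.17, adjusted p = 0.0184), and Ifitm6 (1.19, adjusted p = 0.0233), while Fos (0.96, adjusted p = 0.0641) and Gas7 (adjusted p = 0.0534) were lost. The Main1 droplet of the 3 had held 17 Fn1 UMIs, 77.3% of those of Ly6C-low monocytes, and 1 droplet 90.9% of their Chil3 UMIs. The calls gained here are thus no independent evidence. The classical list then had 5 of 9 called higher and 0 lower (median 1.92), the nonclassical list 6 of 15 lower (median -1.51) and the class II list 6 of 7 lower. S100a9 (-0.11, adjusted p = 0.967) and Jchain (0.18, adjusted p = 0.902) were no longer called, and Ngp, Camp, Lyz1 and C1qb had under 20 UMIs and were not tested.

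Ly6C-low droplets were not all alike. The 15 with 500 or more MHC class II counts carried 8743 CPM of H2-Ab1, against 2659 in the 31 below that count. Ace was 53.2 in the 15 and 486 in the 31, Eno3 35.5 in the 15 and 486 in the 31, and Pglyrp1 70.9 in the 15 and 864 in the 31. Pglyrp1 was found in 4 of the 15 and 16 of the 31, with 29.4% of all its Ly6C-low UMIs in a single droplet. Treml4 was 88.7 in the 15 and 243 in the 31, and Cx3cr1 88.7 in the 15 and 337 in the 31. Csf1r was 106 in the 15 and 391 in the 31. Irf8, a factor of monocytes and dendritic cells, was 904 in the 15 and 256 in the 31, Ccr2 was 798 in the 15 and 621 in the 31, and Cd209a was 585 in the 15 and 472 in the 31. Irf8 was found in 6 of the 15 and 10 of the 31, and a single droplet held 25.7% of all Ly6C-low Irf8 UMIs. The nonclassical genes named here were thus higher in the droplets of low class II antibody, and Cd209a was found in both; these values pool the 2 libraries and carry no test.

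The contrast was repeated without all droplets of 500 or more MHC class II counts, 4 Ly6C-high and 15 Ly6C-low; this contrast was added after the data were seen. Of 2556 genes tested 81 (3.17%) were called, 40 higher (1.56%) and 41 lower (1.60%), 48 of the 81 shared with the 65. The prior degrees of freedom, the weight that edgeR gives to the spread shared by all genes, were infinite here and 11.4 in the full contrast; their part in the calls was not tested. Ccr2 was then called higher in Ly6C-high monocytes (1.15, adjusted p = 2.52e-05), and so was Fn1 (2.74, adjusted p = 3.94e-05). Ace (-2.12, adjusted p = 1.92e-05), Treml4 (-1.92, adjusted p = 0.02), Fcgr4 (-2.48, adjusted p = 0.0224) and Gngt2 (-0.96, adjusted p = 0.0033) were called lower. The classical list had 5 of 9 higher and the nonclassical list 10 of 15 lower (median -1.92). The class II list still had 5 of 7 lower (median -2.20), and Cd209a had a log2 fold change of -4.70. Fcgr3 (0.92, adjusted p = 0.19) and H2-DMb2 (-0.90, adjusted p = 0.623) were no longer called.

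Single genes of both programmes were followed over finer ranges of the Ly6C antibody, pooled over libraries and without a test. In droplets under 100 (38), 100 to under 500 (8, all of Main1), 500 to under 2000 (35) and 2000 or more counts (64), Ace was 268, 451, 215 and 50.8 CPM. Eno3 was 314, 180.5, 74.8 and 21.2 over the same ranges, and Cx3cr1 was 175, 496, 309 and 148, highest in between. Fn1 was 185, 90.2, 252 and 576, with 17 of the 20 UMIs of the lowest range in 1 droplet. Mgst1 was 111, 135, 467 and 788, F13a1 was 36.9, 361, 383 and 343, and Ccr2 was 582, 1263, 1589 and 1343. Droplets of intermediate Ly6C counts held Ace and Eno3 above those of the top range and Fn1 and Mgst1 below them.

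Some single droplets held UMIs from genes of both programmes. At least 1 UMI of Ccr2 or Fn1 was found in 93 of 99 Ly6C-high (93.9%) and 25 of 46 Ly6C-low droplets (54.3%), and at least 1 of Ace or Treml4 in 25 of 99 Ly6C-high (25.3%) and 24 of 46 Ly6C-low droplets (52.2%). Both pairs were found together in 21 of 99 Ly6C-high (21.2%) and 10 of 46 Ly6C-low droplets (21.7%). In B-cell gate droplets, which should lack these genes and had a median of 1656.5 UMIs, the share was 1.65% for Ccr2 or Fn1 and 0.370% for Ace or Treml4. With each droplet thinned to 1000 UMIs, which left out none, Ccr2 or Fn1 was found in 78.8% of Ly6C-high and 43.5% of Ly6C-low droplets, and Ace or Treml4 in 12.1% of Ly6C-high and 32.6% of Ly6C-low droplets. Both were found together in 7 of 99 Ly6C-high (7.07%) and 3 of 46 Ly6C-low droplets (6.52%). In the thinned B-cell gate the share was 0.934% for Ccr2 or Fn1 and 0.195% for Ace or Treml4. Thinning kept the order of the classes for each pair of genes but turned that of both found together, whose shares lay close in either case.

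This contrast has 2 libraries and 1 residual degree of freedom, and its number of calls moved with the settings, as did the prior degrees of freedom, from 2.88 at a Ly6C limit of 300 to infinite. Scaling by total UMIs gave 101 calls, 54 higher and 47 lower, the fit without the library block gave 13, all shared with the 65 (Mgst1 and Hopx higher; Cd74, H2-Aa, H2-Ab1, H2-Eb1, H2-DMb1, Cd209a, Bcl2a1d, Eno3, Rtl8a, Cd24a and Id2 lower), and a Ly6C limit of 300 gave 0, with 283 genes at an unadjusted p under 0.05. Without the Lyz2 requirement, which gives 104 Ly6C-high and 265 Ly6C-low droplets, Ace (log2 fold change 0.73), Treml4 (0.41), Cx3cr1 (1.77), Ear2 (0.16), Gngt2 (0.996) and Adgre4 (1.25) turned positive. Of the 224 droplets this adds, 5 had a Ly6C count of 500 or more. Among the 224, 67 lay in the dendritic cell gate and 87 had 5 or more NKp46 counts. Their part in the turned directions was not tested.

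Monocytes were then set against the other cells of the myeloid family, beginning with the neutrophil gate (CD11b 50 or more, Ly6G 200 or more, and the same CD106 and TCR limits). Of 3555 genes, 385 (10.8%) were called, 144 higher (4.05%) and 241 lower (6.78%) in monocytes. Several receptors of the monocyte lineage were at 0 UMIs in the neutrophil droplets. Ccr2 had 578 UMIs in monocytes and 0 in neutrophils, at least 71.9-fold higher against 3 UMIs (adjusted p = 0.0002). On the same basis Ms4a6c, a membrane protein of monocytes, was at least 83.3-fold higher (adjusted p = 0.0002), S100a4 at least 49.2-fold (adjusted p = 0.000361), Ccl9 46.4-fold (adjusted p = 0.000419), Fn1 23.0-fold (adjusted p = 0.00169), Cx3cr1 12.2-fold (adjusted p = 0.00683), Ace 9.20-fold (adjusted p = 0.0134), Klf4 6.34-fold (adjusted p = 0.0308) and Treml4 5.10-fold (adjusted p = 0.0496). Csf1r had 132 UMIs in monocytes and 3 in neutrophils, a ratio of 16.4 (counting interval 5.50 to 80.6, adjusted p = 0.0228).

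Transcripts of granules ran the other way. All 10 tested neutrophil markers were lower in monocytes. S100a8, a subunit of calprotectin, was 227 and 5325 CPM in monocytes and 145635 and 157652 in neutrophils (-7.70 ± 1.19, adjusted p = 0.00367), and 93.0% of the monocyte UMIs came from the single droplet described above. Retnlg, a resistin-like gene, had 1 UMI in monocytes and 1705 in neutrophils. Il1f9, an interleukin 36 gene, and Stfa2l1, a stefin, were at 0 UMIs in monocytes, at least 29.5-fold and 27.7-fold lower than in neutrophils. Genes of the classical list were among those lower in monocytes. Hp was 670 and 599 in monocytes and 1823 and 2251 in neutrophils (-2.31 ± 0.28, adjusted p = 0.00125), and Mgst1 was 483 and 565 in monocytes and 1043 and 979 in neutrophils (-1.58 ± 0.26, adjusted p = 0.00512). Chil3 (-2.63 ± 0.34) and Ifitm6 (-3.12 ± 0.31) were lower in monocytes as well, so that this list had 4 genes higher and 4 lower of 11, while the nonclassical list had 8 higher and 1 lower of 15. Ly6c2 was 1340.01 and 2362 in monocytes and 1950 and 1052 in neutrophils, with overlap.

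Lysosomal genes were higher in monocytes than in neutrophils in 8 of 14 cases and lower in 1, with Ctss at a log2 fold change of 3.29 ± 0.31 (adjusted p = 0.00036). Irf8, which steers progenitors to monocytes rather than granulocytes, was higher (2.37 ± 0.40, adjusted p = 0.00531), and 4 of 7 glycolysis genes were lower. The split of calls depended on scaling. The 11 neutrophil markers measured took 443 and 10681 CPM in monocytes and 325871 and 321310 in neutrophils. Scaled by total UMIs, 961 genes were called, 778 higher and 183 lower, and the median log2 fold change of all genes was 0.81, in place of 0.14.

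Red pulp macrophages, the spleen's resident cells that recycle iron from old red cells, were gated on CD106 60 or more and F4/80 200 or more. Of 3918 genes, 537 (13.7%) were called, 260 higher (6.64%) and 277 lower (7.07%) in monocytes. All 8 tested macrophage markers and 5 of 6 iron genes were lower in monocytes. Slc40a1, the iron exporter ferroportin, was 19.7 and 3.70 CPM in monocytes and 1817 and 1701 in macrophages (-7.40 ± 0.30). Spic, the factor that red pulp macrophages need, was 9.85 and 14.8 in monocytes and 653 and 895 in macrophages (-6.01 ± 0.37). Hmox1, haem oxygenase 1, was 64.0 and 18.5 in monocytes and 2429 and 2876 in macrophages (-6.22 ± 0.24), and C1qa, a complement subunit, 113 and 18.5 in monocytes and 2776 and 2775 in macrophages (-5.65 ± 0.25). All of these passed the test and no library overlapped.

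The classical list was higher in monocytes than in macrophages in 10 of 11 cases and lower in 0 (median 3.59). Ccr2 was 1118 and 1297 in monocytes and 91.9 and 11.2 in macrophages (4.35 ± 0.31, adjusted p = 3.43e-17), and Fn1 had 185 UMIs in monocytes and 2 in macrophages, a ratio of 36.6 (counting interval 9.99 to 304, adjusted p = 1.96e-10). Some genes taken as monocyte genes were at least as abundant in macrophages. Treml4 was 148 and 40.7 in monocytes and 296 and 246 in macrophages (-1.75 ± 0.37, adjusted p = 0.000237), and Csf1r was 320.2 and 248 in monocytes and 755 and 638 in macrophages (-1.43 ± 0.22, adjusted p = 6.84e-07). At 0 UMIs in macrophages were Tppp3 (at least 14.2-fold higher in monocytes), Slfn1 (6.46-fold), Cd177 (6.07-fold) and Gm9733 (5.41-fold). At 0 UMIs in monocytes were Igf1, insulin-like growth factor 1 (at least 59.8-fold lower), Ccr3 (45.5-fold), Gfra2 (37.1-fold), Mertk, a receptor for dead cells (33.7-fold), and Kcnj10.

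The dendritic cell gate required CD11c of 100 or more, MHC class II of 1000 or more and B220 under 200, outside the monocyte gate. Of its 73 droplets, 67 met the monocytes' antibody criteria and were kept out of the monocyte gate by Lyz2 alone. The 2 gates also differed in antibodies that only the dendritic cell gate used. Median CD11c was 5 in monocytes and 267 in dendritic cells, and median MHC class II was 37 in monocytes and 2404 in dendritic cells. This contrast thus follows Lyz2, CD11c and MHC class II together. Of 3997 genes, 515 (12.9%) were called, 270 higher (6.76%) and 245 lower (6.13%) in monocytes. The classical list was higher in monocytes in 10 of 11 cases (median log2 fold change 6.74, or 4.82 with the 4 genes at 0 in dendritic cells set at their bound), and the nonclassical list in 8 of 15 (median 1.61), with 0 lower in either. Ccr2 was 1118 and 1297 CPM in monocytes and 24.9 and 43.8 in dendritic cells (4.91 ± 0.30, adjusted p = 2.89e-07). Ly6c2 had 911 UMIs in monocytes and 1 in dendritic cells. At 0 in dendritic cells were Mgst1 (at least 38.4-fold higher in monocytes, adjusted p = 5.11e-06), Fn1 (28.3-fold, adjusted p = 2.07e-05), F13a1 (20.5-fold), Cx3cr1 (15-fold), Ace (11.3-fold, adjusted p = 0.000589) and Fcgr1, the high-affinity Fc receptor (3.52-fold, adjusted p = 0.0331). Csf1r had 132 UMIs in monocytes and 2 in dendritic cells, a ratio of 30.3 (counting interval 8.22 to 253, adjusted p = 0.000156).

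Of 6 dendritic cell markers tested, 5 were lower in monocytes. Flt3, the growth factor receptor of dendritic cells, was 19.7 and 25.9 in monocytes and 87.2 and 87.5 in dendritic cells (-2.02 ± 0.57, adjusted p = 0.0344). Xcr1, of cross-presenting dendritic cells, had a log2 fold change of -3.54 ± 0.68 (adjusted p = 0.00336), Ccr7, which guides migration to T-cell zones, of -4.19 ± 0.43, and Cd83, an activation antigen, of -5.05 ± 0.41. Cd74 was 7873 and 9029 in monocytes and 37198 and 45941 in dendritic cells (-2.44 ± 0.08, adjusted p = 5.83e-10); the dendritic cell gate had used the MHC class II antibody. At 0 UMIs in monocytes were Fscn1, an actin bundler of mature dendritic cells (at least 69.0-fold lower), Ffar2 (47.9-fold), Mmp12 (39.2-fold), Adam23 (24.7-fold) and Klri2 (18.9-fold). Without the Lyz2 requirement the dendritic cell gate keeps 6 droplets and 0 genes were called, with 20 at an unadjusted p under 0.05.

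**Figure D5:**
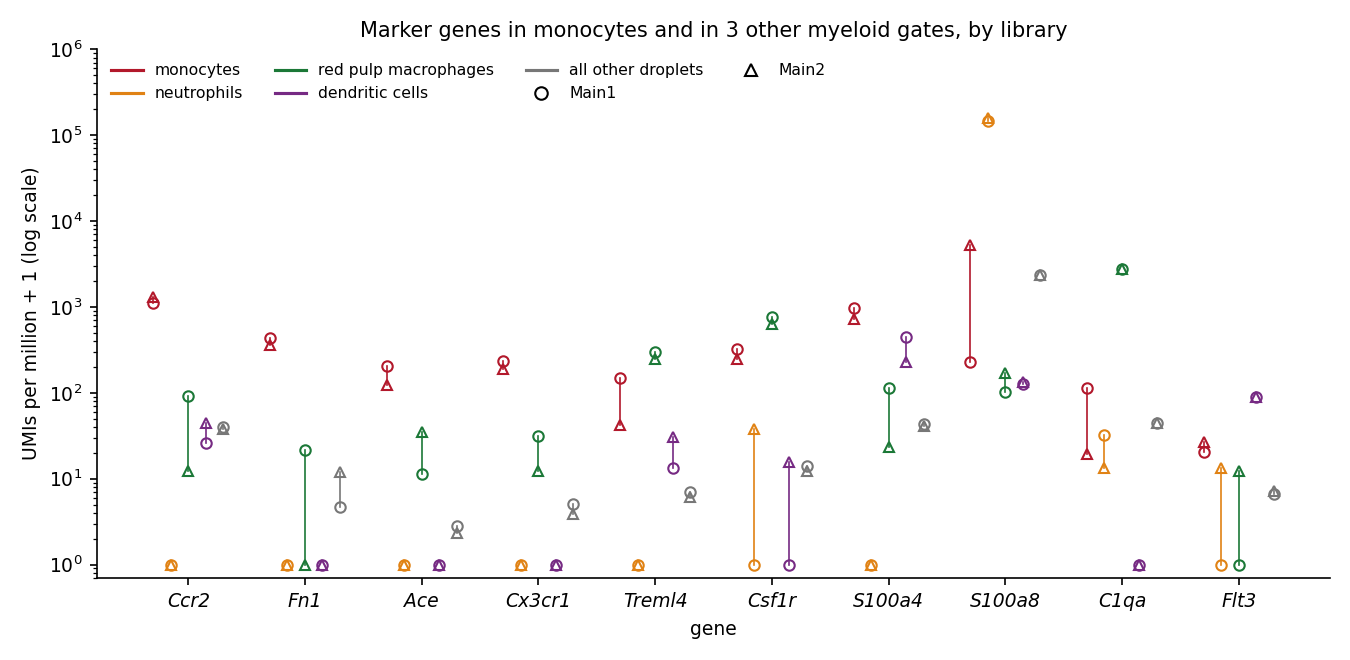
CPM plus 1 (log scale) of 10 genes in monocytes (red), neutrophils (orange), red pulp macrophages (green), dendritic cells (purple) and all other droplets (grey); circles are Main1, triangles Main2, and a line joins the 2 libraries. Ccr2 and Fn1 are highest in monocytes, Treml4 and Csf1r in macrophages, S100a8 in neutrophils, where Ccr2 is at 0, and Flt3 in dendritic cells.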

How the data were processed

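RNA and antibody tables of 2 libraries, Main1 and Main2, hold raw UMI counts per droplet as deposited. Per the submitters' processing notes, bcl2fastq and Cell Ranger 3.0.2 were used with mm10; other filters are not given in the sources used here. The deposited count table lists 11713 genes, none of them mitochondrial (0) and each detected in 15 or more droplets; 11693 IDs were matched to a GENCODE vM21 symbol. No column of another series was found (0).

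The members, lists and tests were chosen with earlier results of these data known. Droplets were gated on raw antibody counts and Lyz2. UMI counts were summed per library and population and tested with edgeR 4.0.16 (R 4.3.3; glmQLFit, glmQLFTest, TMM scaling) on genes with 20 or more UMIs, with the library as a block, since both populations come from the same libraries, and Benjamini-Hochberg adjustment. The genes of the gating antibodies and Lyz2 were left out of the tests, and Ly6c1 and Ly6c2 out of the Ly6C contrast. The standard error is the log2 fold change divided by the square root of F. Named genes are members of the lists and, among called genes with the same sign in both libraries and no droplet over 25% of the higher population's UMIs, the 10 largest changes in each direction (5 against the 3 myeloid gates); a few others, such as those carried by 1 droplet, were chosen after their values were seen. Some genes that this rule names are not reported here. Intervals are exact at 95% and, like the floor of 3 counts, cover counting error only. No doublet caller was run. Alternatives were DESeq2 1.42.0, other scalings and filters, no block, thinning to 1000 UMIs, single libraries and other gates. On simulated counts with 4-fold changes, 69 of 198 changed genes were recovered against all other droplets and 115 of 149 between the Ly6C classes. In the same order, 1 and 5 unchanged genes were called. The simulation gave every gene the same dispersion and had no single outlying droplets, so these rates need not hold for the real contrasts.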

Additional observations from a re-analysis of the deposited data

How the results depend on the processing

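The share of monocyte droplets was 1.99% without Main1 and 2.108% without Main2, and 5.20% without the Lyz2 requirement. Numbers of called genes moved by more than 1.5 times as follows; the causes were not tested. Against all other droplets (2380), DESeq2 called 1209 (68.9% of them higher, in place of 51.0%) and thinning to 1000 UMIs 744. Between the Ly6C classes (65), DESeq2 called 17, RLE size factors 128, total UMIs 101, the 50-UMI filter 108, no filter 128, the gate without the Lyz2 requirement 1007, leaving out B220 of 200 or more 115, Ly6C limits of 300 and 1000 gave 0 and 105, and leaving out the S100a8 droplet 42. Against neutrophils (385), DESeq2 called 118, total UMIs 961, thinning 213, no Lyz2 requirement 659, 5 or more Lyz2 UMIs 611, CD11b of 100 or more 592, no B220 of 200 or more 606, no 3 single droplets 630 and no MHC class II of 500 or more 588. Against macrophages (537), DESeq2 called 111, the 50-UMI filter 266, thinning 281 and no CD11c of 100 or more 352. Against dendritic cells (515), DESeq2 called 88, thinning 264 and no Lyz2 requirement 0.

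Without the Lyz2 requirement the direction turned for Ccl4 (4.27) against all other droplets, for Ace (0.73), Treml4 (0.41), Cx3cr1 (1.77), Gngt2 (0.996), Ear2 (0.16) and Adgre4 (1.25) between the Ly6C classes, and for Flt3 (0.72), Cd74 (0.79), Ffar2 (1.55), Mmp12 (7.31), Adam23 (0.46) and Klri2 (1.69) against dendritic cells. The wider gate takes in 224 more droplets, of which 67 lay in the dendritic cell gate. Cx3cr1 also turned at a Ly6C limit of 300 (0.11), Camp without Main2 (2.55, and -7.62 without Main1), Jchain without Main2 (-0.30, and 6.52 without Main1) and C1qb without Main1 (1.75, and -5.05 without Main2). Leaving out 1 library leaves 1 per population, so those values carry no test. The library block pairs populations by construction; without this replicate block 2190, 13, 566, 431 and 507 genes were called, in the order above. Total-UMI scaling moved the median log2 fold change to 0.11 against macrophages and 0.13 against dendritic cells. Genes to which DESeq2 gave no adjusted p (1712 between the Ly6C classes) were left out of these comparisons of calls.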
